A study of Homo sapiens with 34 samples.

Results

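The data compare H1 human ESCs in which NKX2-5 was depleted with a lentiviral shRNA with WT H1 cells, both at day 6 of directed differentiation along the cardiac lineage, the cardiac progenitor stage. The comparison holds 2 NKX2-5 shRNA and 2 WT libraries, 4 of the 34 in the series, and was made over 16441 genes with enough reads. H1 is an established human ESC line. WT cells carried the same kind of vector, either empty or with an shRNA against GFP, and all lines were selected with puromycin. The NKX2-5 shRNA cells carry the 1 vector that depleted the gene best, so the effect of depletion and any trait of that 1 line cannot be told apart. Both groups were taken through the same protocol, with CHIR99021, a GSK3 inhibitor that activates WNT signaling, over the first day, and the WNT inhibitor IWP2 from day 2. The values are counts of total RNA reads over RefSeq gene regions, given here as CPM, read counts relative to the scaled total of the library. ZNF503 shRNA and ZEB2 shRNA cells of the same day, 2 libraries each, were used to see what differed from other knockdowns, and libraries of days 0, 2 and 10 to place the differences in time.

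NKX2-5 encodes a homeodomain transcription factor (TF) that marks cardiac progenitors and stays on in the myocardium. Together with GATA4, TBX5, TBX20, MEF2C and HAND TFs it binds and activates genes of the sarcomere, of calcium handling and of conduction. Cardiac progenitors arise from mesoderm that lies beside the endoderm of the embryo, which is the source of the liver. The yolk sac, outside the embryo, is lined by an endoderm of its own. In WT cultures all 10 markers of cardiac progenitors were measured, from TBX5 at 14.3 CPM in replicate 1 upward. The cardiomyocyte markers TNNT2, MYL7, MYH6 and ACTN2 were already high, so WT cultures held RNA of the labelled stage and of cardiomyocytes. In NKX2-5 shRNA cells 5 of the 10 progenitor markers and all 4 cardiomyocyte markers were called lower, by the rule given below, and the name of the stage stands there for the day rather than for the cells. POU5F1 and NANOG, which mark pluripotent cells, lay at 4.06 CPM or less in all 4 libraries, and the blood factor GATA1 and the neural factor SOX1 were at or near 0, although other markers of blood and neural cells were measured, as given below.

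The 4 libraries held between 24174330 and 50873037 counts. A gene was called when it differed by at least 8-fold at a false discovery rate of 1%, the study's threshold for this day, in edgeR's quasi-likelihood test. Of the 16441 genes, 774 (4.71%) were called, 562 (3.42%) lower and 212 (1.29%) higher in NKX2-5 shRNA cells. With no limit on fold and a false discovery rate of 5%, 8077 genes (49.1%) passed, 4056 lower (24.7%) and 4021 higher (24.5%). The deepest differences were reductions: 157 called genes were lower by at least 32-fold, of which 31 by at least 256-fold, whereas 5 called genes were higher by at least 32-fold and 0 by 256-fold. Genes called lower made up 5.06% and 4.13% of the WT counts and 0.151% and 0.163% of the NKX2-5 shRNA counts. Genes called higher made up 2.18% and 2.12% in NKX2-5 shRNA cells and 0.118% and 0.264% in WT cells. In 114 genes called lower and 38 called higher all libraries of 1 group held at most 3 counts, and for these a fold is given, and was counted above, only as a bound. Since the libraries are bulk RNA, fewer cells of a type and less RNA per cell cannot be told apart in any of these values.

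**Figure D1:**
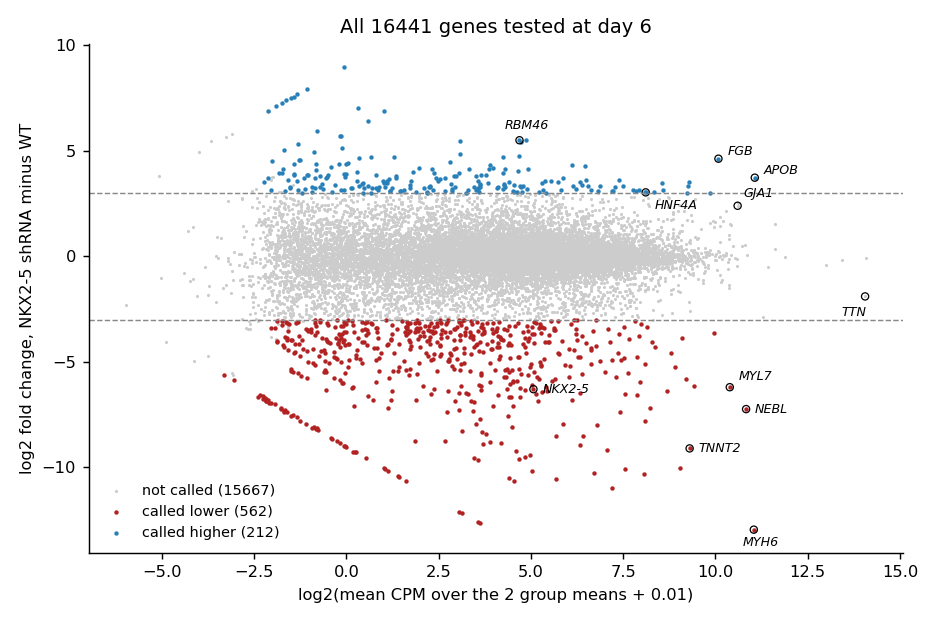
Each of 16441 genes at day 6, with the log2 of its mean CPM over both groups on the x axis and its log2 fold change, NKX2-5 shRNA minus WT, on the y axis; 562 genes called lower are red, 212 called higher are blue, and dashed lines mark 8-fold. MYH6 lies lowest at -12.96, and the lower diagonal edge is made of genes with 0 or very few counts in NKX2-5 shRNA cells, whose fitted fold change depends on a small added count.

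The WT replicates differed in how much endoderm and muscle RNA they held. Hepatic and yolk sac genes summed to 1528 CPM in WT replicate 1 and 2693 CPM in replicate 2, and sarcomere genes to 56466 and 45743 CPM. The NKX2-5 shRNA replicates were closer, with 15551 and 15712 CPM of the first list and 8457 and 8389 CPM of the second. The groups did not overlap in either sum, but the number of genes called higher was 120 without WT replicate 1 and 346 without WT replicate 2, while the number called lower stayed between 517 and 580 whichever library was left out.

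Markers of other cell types moved with the groups. The 4 hepatic or yolk sac markers summed to 2957 and 3131 CPM in NKX2-5 shRNA cells against 290 and 584 CPM in WT cells, with 1 of 4 called higher, and the 4 definitive endoderm markers to 269 and 268 CPM against 53.6 and 76.8 CPM, with 1 of 4 called higher. Cardiomyocyte markers summed to 34.7 and 43.4 CPM against 9205 and 7386 CPM, all 4 called lower, and smooth muscle markers to 24.2 and 33.1 CPM against 653 and 447 CPM, 2 of 3 called lower. Endothelial markers, at 41.5 and 39.0 CPM against 48.3 and 71.4 CPM, were not called. The 4 blood markers summed to 40.6 and 38.8 CPM against 9.52 and 18.8 CPM, and the 3 neural markers to 79.0 and 95.6 CPM against 16.2 and 23.3 CPM, nearly all of it TUBB3, with no call in either. The part of a changed mix of cell types in each single gene was not tested.

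NKX2-5 itself (chr5:172659112-172662314, minus strand, GRCh37) was measured at 0.975 and 0.743 CPM in NKX2-5 shRNA cells and at 83.3 and 49.3 CPM in WT cells. Its log2 fold change was -6.30 (SE 0.30, adjusted p = 9.6e-09), and the groups did not overlap. NKX2-5 was also low in ZNF503 shRNA cells, at 2.84 and 2.03 CPM, in which it was not the target, and the direct difference between these 2 lines was -1.52 (adjusted p = 0.012). At days 0 and 2 no NKX2-5 shRNA or WT library exceeded 0.417 CPM, so the shRNA could not be checked before the gene was on.

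Of 30 further cardiac TFs tested, 12 were called lower and none higher, and 19 were lower and 4 higher at 5% false discovery rate, with a median log2 fold change of -2.67 against -0.00 for all genes. MYOCD, a co-activator of SRF on muscle promoters, was at 4.91 and 4.90 CPM in NKX2-5 shRNA cells and at 542 and 395 CPM in WT cells (log2 fold change -6.57, adjusted p = 6.0e-10). MEF2C, a MADS-box factor of myogenesis, was at 25.5 and 24.3 CPM against 1099 and 788 CPM in WT (-5.24, adjusted p = 4.9e-09). ISL1, the LIM-homeodomain factor of second heart field progenitors, was at 3.18 and 3.60 CPM against 185 and 144 CPM (-5.58, adjusted p = 3.1e-10). In each of the 3 genes both NKX2-5 shRNA libraries lay far under both WT libraries. SMYD1, a muscle methyltransferase needed for ventricle growth, had the deepest difference of the list, at 0.289 and 0.0586 CPM against 332 and 252 CPM (-10.97, adjusted p = 4.1e-10). TBX5 (-6.49), TBX20 (-4.95), HAND2 (-4.58), HEY1 (-4.86), TBX2 (-3.60), IRX3 (-4.36), IRX5 (-3.12) and the related homeobox gene NKX2-6 (-8.80) completed the 12. HAND1, which acts in the left ventricle and in extraembryonic mesoderm, was lower under 8-fold, at 18.6 and 21.2 CPM against 60.3 and 64.0 CPM (-1.64, adjusted p = 5.8e-06).

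The list was not lower as a whole. GATA4, which partners NKX2-5 on many cardiac promoters, was at 181 and 174 CPM against 118 and 126 CPM in WT, a difference of 0.54 (adjusted p = 0.0030). GATA6 was at 133 and 139 CPM against 82.0 and 86.1 CPM (0.69, adjusted p = 0.00016). TBX3, a repressor of the working myocardial program, stood at 349 and 331 CPM against 76.9 and 126 CPM (1.74, adjusted p = 5.8e-06). None of these 3 reached 8-fold. In all 3 both NKX2-5 shRNA libraries lay above both WT libraries, as they did in 40.1% of all genes, while in 39.9% they lay below. GATA5, with 30.7 and 33.1 CPM against 28.5 and 30.8 CPM, did not pass the test (0.10, adjusted p = 0.54). Among the progenitor markers, PDGFRA, the receptor that marks cardiogenic mesoderm, was at 912 and 865 CPM against 928 and 801 CPM, groups that overlap (0.04, adjusted p = 0.79), whereas KDR was lower by a smaller factor than the TFs, at 148 and 149 CPM against 402 and 455 CPM (-1.53, adjusted p = 1.0e-06).

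**Figure D2:**
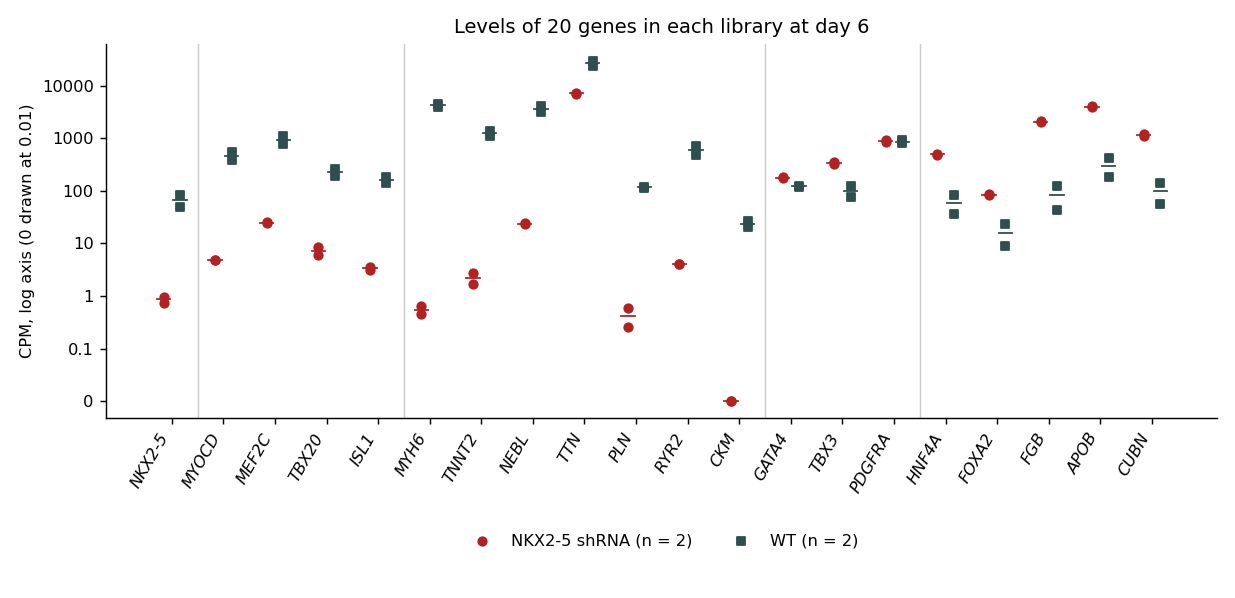
CPM of 20 genes in each of the 4 libraries on a log axis, with NKX2-5 shRNA as red circles, WT as dark squares and a bar at each mean of 2; a CPM of 0 is drawn at 0.01. From left to right the groups are NKX2-5, cardiac TFs, contractile, calcium and energy genes, progenitor genes that were not called, and endoderm and secretory genes; PDGFRA overlaps between the groups and CKM is at 0 in both NKX2-5 shRNA libraries.

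Genes of the sarcomere, the contractile unit of striated muscle, made up the list with the deepest median. Of 37 tested, 30 were called lower and none higher, against 3.42% of all genes called lower, and 34 were lower at 5% false discovery rate. Their median log2 fold change was -6.49, or -6.21 when the 5 genes at the limit of detection were set to their bound. The count of 30 was the same without any 1 of the 4 libraries. MYH6 (chr14:23851191-23877482, minus strand, GRCh37), the atrial and embryonic myosin heavy chain, was at 0.650 and 0.449 CPM in NKX2-5 shRNA cells and at 4569 and 3863 CPM in WT cells (-12.96, SE 0.32, adjusted p = 1.1e-10). TNNT2, cardiac troponin T, was at 1.70 and 2.70 CPM against 1399 and 1123 CPM (-9.11, SE 0.22, adjusted p = 1.1e-10). MYL7, the atrial regulatory light chain, kept more of its level, at 31.6 and 40.0 CPM against 3066 and 2232 CPM (-6.21, adjusted p = 8.1e-10). The thick filament gene MYBPC3 (-10.30) and the slow myosin MYH7 (-10.10) were called too, as was UNC45B (-10.32), a chaperone of myosin folding.

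A few genes of the list stayed closer to WT. TTN, the giant molecular spring, was at 7293 and 7091 CPM against 29613 and 24188 CPM in WT (-1.90, adjusted p = 9.6e-08), and TPM1 at 594 and 620 CPM against 4790 and 4086 CPM (-2.87, adjusted p = 2.8e-09). Both were lower in every NKX2-5 shRNA library but under 8-fold. ACTC1, the actin of embryonic heart, was at 133 and 164 CPM against 2011 and 1659 CPM (-3.63, adjusted p = 4.9e-09). ANKRD1, a stress-responsive protein of the Z-disc and I-band, differed by -1.56 (adjusted p = 1.4e-06), while ACTA1 (-0.04) and MYOM2 (-0.02) did not pass the test.

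Calcium handling genes, which couple excitation to contraction, were called lower in 10 of 19 tested and higher in none, with a median of -3.11. RYR2, the calcium release channel of the sarcoplasmic reticulum, was at 4.12 and 3.99 CPM against 707 and 477 CPM (-7.19, adjusted p = 7.7e-10). PLN, the inhibitor of the calcium pump, was at 0.253 and 0.586 CPM against 115 and 117 CPM (-7.97, adjusted p = 3.9e-10). SLC8A1, the sodium-calcium exchanger, was at 10.2 and 9.09 CPM against 913 and 723 CPM (-6.41, SE 0.16, adjusted p = 1.1e-10). The pump itself, ATP2A2, which most cells use, was at 231 and 250 CPM against 292 and 263 CPM and did not pass the test (-0.20, adjusted p = 0.13).

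Ion channel and coupling genes were called lower in 10 of 24 and higher in none. KCNJ5, a subunit of the acetylcholine-gated potassium channel, was at 0.217 and 0.430 CPM against 40.6 and 27.4 CPM (-6.59, adjusted p = 2.1e-08), and HCN4, the pacemaker channel, at 1.59 and 2.13 CPM against 31.7 and 33.7 CPM (-4.11, adjusted p = 1.1e-07). POPDC2, a cAMP-binding membrane protein of heart and muscle, was at 2.10 and 1.49 CPM against 115 and 82.1 CPM (-5.82, adjusted p = 2.1e-09). The gap junction gene GJA1, which epithelia and mesenchyme also use, went the other way, at 2665 and 2563 CPM against 343 and 650 CPM (2.40, adjusted p = 4.6e-06), and the desmosomal gene DSP was at 597 and 584 CPM against 543 and 612 CPM, groups that overlap. Among 9 natriuretic peptide and secreted heart factor genes, 2 were called lower, NPPA and CORIN, the protease that activates the NPPA product. NPPA, a gene that NKX2-5 activates in the atrium, was close to the limit of detection even in WT, at 0.600 and 1.15 CPM against 0.0723 and 0.0782 CPM (-3.51, adjusted p = 0.00080). Its antisense partner NPPA-AS1, at 4.95 and 4.96 CPM against 4.20 and 4.64 CPM, was not called, and reads from the pair cannot be told apart unless strand was used in counting. NPPB was slightly higher, at 39.3 and 56.5 CPM against 28.9 and 23.4 CPM (0.88, adjusted p = 0.0021).

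Muscle energy genes were called lower in 10 of 19 and higher in none, with a median of -3.41. CKM, muscle creatine kinase, had 0 counts in both NKX2-5 shRNA libraries and 26.6 and 20.6 CPM in WT cells, which is at least 283-fold lower on a limit of 3 counts per library. PPP1R3A, the muscle glycogen-targeting subunit of protein phosphatase 1, was likewise at 0 against 26.7 and 22.4 CPM, at least 294-fold lower. PPARGC1A, the co-activator that drives mitochondrial biogenesis, was at 5.82 and 5.35 CPM against 218 and 170 CPM (-5.12, adjusted p = 6.1e-10). The 28 nuclear genes of mitochondrial respiration moved much less: none was called, 24 were lower at 5% false discovery rate and none higher, against 24.7% of all genes lower, and their median was -0.72. CYCS, cytochrome c, had the deepest difference of these, at 94.8 and 89.5 CPM against 313 and 257 CPM (-1.63, adjusted p = 5.5e-06).

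Smooth muscle genes were called lower in 3 of 13, LMOD1 (-6.55), ACTA2 (-4.78) and CNN1 (-3.07). ACTA2, the smooth muscle actin that early cardiomyocytes also make, was at 14.7 and 18.0 CPM against 545 and 361 CPM. MYH11, which marks smooth muscle cells more strictly, was at 0.867 and 1.21 CPM against 1.20 and 1.86 CPM and did not pass the test. CALD1, the actin-binding protein caldesmon, was higher, at 965 and 950 CPM against 482 and 578 CPM (0.85, adjusted p = 0.00012).

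**Figure D3:**
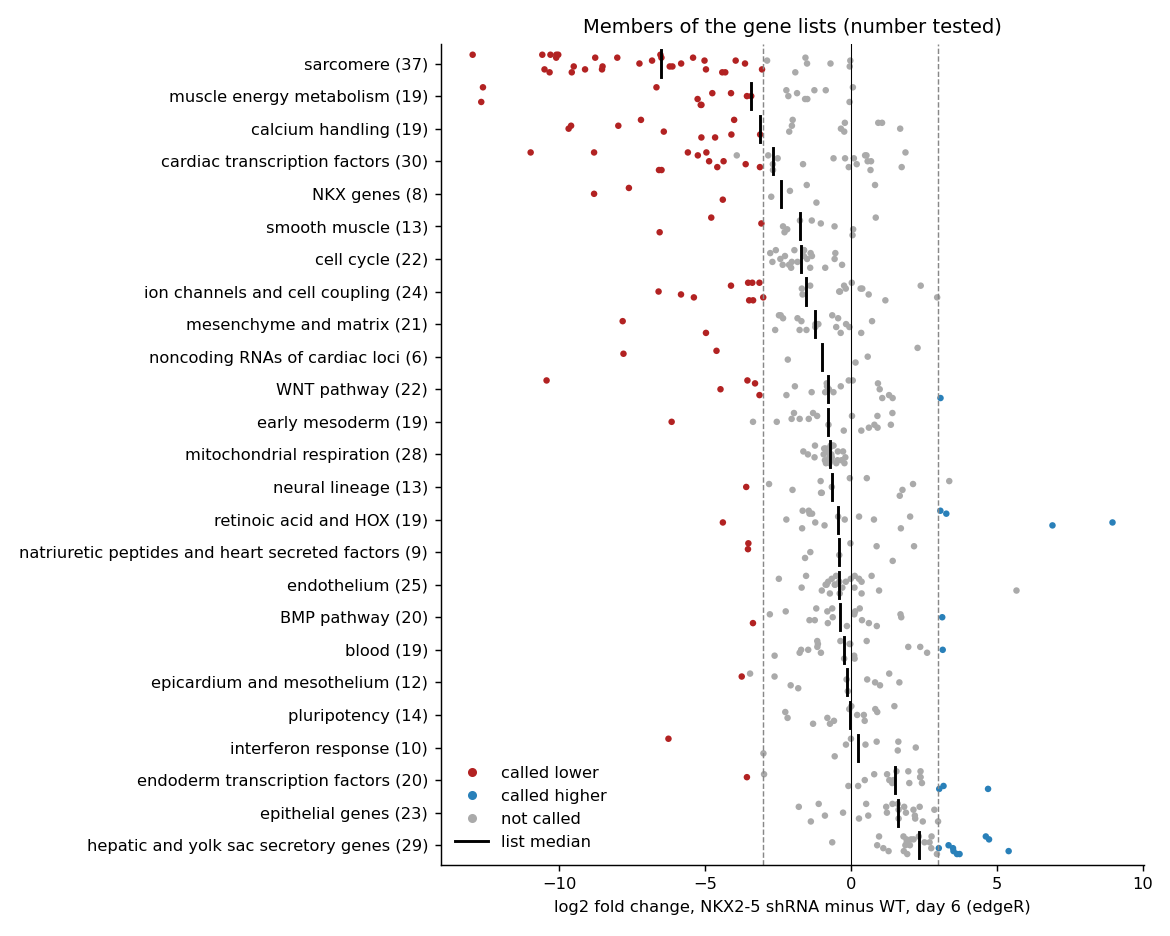
Log2 fold change, NKX2-5 shRNA minus WT, of every tested member of 25 gene lists (1 point per gene, number tested in brackets), with the list median as a black bar and 8-fold as dashed lines. Sarcomere genes stand farthest left, with a median of -6.49 and 30 of 37 called lower, and hepatic and yolk sac secretory genes farthest right, with a median of 2.33 and 9 of 29 called higher.

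Outside the lists, the 10 deepest reductions by the fitted value, among genes with a mean of at least 5 CPM in WT, included 5 genes at the limit of detection, whose place among the 10 cannot be given. Of these, CHRM2, the muscarinic receptor that slows the heart, was at least 553-fold lower, and HPSE2 and FSD2 at least 211-fold and 199-fold lower. CHRM2 was at 0 and 0.0391 CPM in NKX2-5 shRNA cells and at 53.7 and 38.7 CPM in WT cells. ASB2, a ubiquitin ligase subunit of developing muscle, was at 0.0723 and 0.0977 CPM against 71.5 and 53.6 CPM (-9.40, adjusted p = 6.3e-09). LMO3, a LIM-only transcriptional cofactor, was at 0.289 and 0.547 CPM against 293 and 245 CPM (-9.21, adjusted p = 1.6e-10). CYSLTR2, SV2C, BRINP2, DNAJC5G and CBLN2 completed the 10, which were chosen among genes whose libraries did not overlap.

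Of 135 tested genes whose symbol is MIR with a number, miRNA hairpins and host genes together, 5 were called lower (3.70%, against 3.42% of all genes) and 4 higher (2.96%, against 1.29%). The mature sequences of 3 are shown, because miR-208a is known from heart muscle, miR-122 from liver, and miR-490 comes from within CHRM2. The reads count RNA over the hairpin region, which in a total RNA library can stem from the host transcript, so they are no measure of the mature miRNA. MIR208A (chr14:23857799-23857881, minus strand, GRCh37) lies on the same strand inside an intron of MYH6 and had 0 counts in both NKX2-5 shRNA libraries against 12 and 18 in WT, at least 5.62-fold lower. MIR490 (chr7:136587914-136588041, GRCh37) lies inside CHRM2 and had 0 counts against 36 and 32, at least 13.7-fold lower. MIR122 (chr18:56118306-56118390, GRCh37) had 89 and 115 counts in NKX2-5 shRNA cells against 3 and 15 in WT, a log2 fold change of 3.35 (SE 0.55, adjusted p = 0.00031). The mature sequences from RefSeq, with the seed at bases 2 to 8 in capitals, share no seed:
hsa-miR-208a-3p: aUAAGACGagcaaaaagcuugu
hsa-miR-490-3p: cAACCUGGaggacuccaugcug
hsa-miR-122-5p: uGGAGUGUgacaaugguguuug
The other hairpins called higher were MIR302B, MIR3646, which lies in an exon of HNF4A, and MIR711, in an exon of COL7A1.

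Genes of the liver and yolk sac were the clearest group above WT. Of 29 secretory genes tested, 9 were called higher and none lower, against 1.29% of all genes called higher, and 26 were higher at 5% false discovery rate, with a median of 2.33. APOB, the scaffold of lipoproteins made by liver and yolk sac, was at 4059 and 3929 CPM in NKX2-5 shRNA cells and at 187 and 415 CPM in WT cells (3.73, SE 0.30, adjusted p = 8.9e-07). FGG, the gamma chain of fibrinogen, was at 53.1 and 45.6 CPM against 1.07 and 2.42 CPM (4.74, adjusted p = 1.2e-07). AMN, which anchors the uptake receptor cubilin in absorptive epithelia, was at 51.4 and 53.3 CPM against 0.472 and 1.76 CPM (5.41, adjusted p = 2.1e-07), and CUBN, cubilin itself, was called too (3.50). APOA1, APOA2, RBP4, FGA and FGB completed the 9. TTR and AFP, classical yolk sac and fetal liver products, were higher under 8-fold, TTR at 1187 and 1233 CPM against 129 and 243 CPM (2.70, adjusted p = 2.4e-06) and AFP at 678 and 725 CPM against 93.9 and 184 CPM (2.33, adjusted p = 2.1e-05). ALB, albumin, was low in every library, at 7.37 and 8.05 CPM against 1.24 and 2.73 CPM (1.91). In each of these genes WT replicate 1 lay under WT replicate 2, and the number called in the list was 6 without WT replicate 1 and 16 without WT replicate 2.

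The TFs of the endoderm showed the same direction in 16 of 20 at 5% false discovery rate, with a median of 1.51, and 3 were called higher. HNF4A, the nuclear receptor of liver and gut epithelium, was at 479 and 508 CPM against 36.2 and 83.9 CPM (3.03, adjusted p = 3.2e-06), and the hindgut and trophectoderm factor CDX2 at 5.20 and 4.28 CPM against 0.0857 and 0.235 CPM (4.70, adjusted p = 2.9e-06). SOX17 (2.39, adjusted p = 4.2e-06) and FOXA2 (2.38, adjusted p = 3.0e-05), which specify definitive endoderm, were higher under 8-fold. Not all endoderm factors were: PROX1, a homeobox gene of liver, lymphatic and heart muscle cells, was called lower, at 4.62 and 4.85 CPM against 61.1 and 51.1 CPM (-3.56, adjusted p = 1.9e-08), and HHEX was at 8.06 and 7.60 CPM against 53.0 and 69.7 CPM (-2.97, adjusted p = 6.0e-08). The number called higher in this list was 1 without WT replicate 1 and 6 without WT replicate 2.

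Among 23 epithelial genes none was called, 17 were higher and 4 lower at 5% false discovery rate, with a median of 1.61. The keratin KRT19 was at 1499 and 1584 CPM against 448 and 542 CPM (1.64, adjusted p = 8.6e-07), and the adhesion gene EPCAM differed by 1.43. The simple-epithelium keratins KRT8 (-1.10) and KRT18 (-1.78) were lower. Outside the lists, the largest rises were of PCDH15, RBM46, DIO1, PRODH2, COL4A3, KCNJ15, CTSF, SERPINF2, RFX6 and C4orf17. DIO1, the deiodinase of liver and kidney, was at 18.1 and 15.0 CPM against 0.171 and 0.494 CPM (5.47, adjusted p = 1.4e-07). RFX6, an endoderm and islet factor, was at 183 and 152 CPM against 3.94 and 12.5 CPM (4.29, adjusted p = 1.7e-06), and SERPINF2, the plasmin inhibitor made by liver, at 139 and 127 CPM against 2.92 and 9.65 CPM (4.34, adjusted p = 1.0e-06). These 10, too, were chosen among genes without overlap.

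Blood and endothelial genes showed no common direction at day 6. Of 30 blood genes listed 19 had enough reads, and GATA1, HBZ, HBA1, HBA2 and HBB were among those that did not. HBG1 was the 1 called gene, at 1.08 and 2.27 CPM against 0.300 and 0.118 CPM (3.15, adjusted p = 0.00070); it shares reads with its near copy HBG2 and lost the call without NKX2-5 shRNA replicate 2. HBE1, the embryonic globin, was at 25.0 and 24.8 CPM against 4.03 and 8.42 CPM (1.97, adjusted p = 1.0e-04), and RUNX1 at 4.30 and 4.18 CPM against 0.514 and 1.04 CPM (2.38, adjusted p = 0.00011). GATA2 was lower (-1.70, adjusted p = 2.3e-05), as were KLF1 (-1.75) and LMO2 (-1.13). Of 25 endothelial genes none was called, 7 were lower and 2 higher at 5% false discovery rate, and CDH5, the cadherin of endothelial junctions, was at 11.7 and 12.0 CPM against 10.5 and 16.1 CPM. Neural and pluripotency genes were called in 1 of 13 and none of 14, against 4.71% of all genes. The call was DCX, lower (-3.58), and at 5% false discovery rate 3 neural genes were higher and 5 lower. TUBB3, the tubulin of neurons, was at 78.8 and 95.1 CPM against 16.2 and 23.2 CPM (2.13, adjusted p = 2.0e-06). In the pluripotency list 3 were higher and 5 lower at 5%, among the latter SOX2, at 0.397 and 0.606 CPM against 2.44 and 2.49 CPM (-2.25, adjusted p = 0.00091). LIN28A, still high in all 4 libraries at 1002 to 1176 CPM, did not pass the test.

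Some genes of signals and their inhibitors were called, in either direction. The BMP list held 1 call each way (5.0%), and the WNT list 5 lower (22.7%) and 1 higher (4.55%). Of all genes, 3.42% were called lower and 1.29% higher, so a single call says little about a list. In the BMP list of 20 genes, the median was -0.38, with BMPER, an extracellular BMP modulator, called lower, at 32.5 and 32.9 CPM against 388 and 282 CPM (-3.35, adjusted p = 2.8e-08). BMP6 was called higher, at 169 and 186 CPM against 11.9 and 27.9 CPM (3.13, adjusted p = 3.0e-06). BMP4 was lower under 8-fold (-2.23, adjusted p = 2.3e-08), and the target gene ID2, at 453 and 445 CPM against 405 and 422 CPM, did not pass the test. In the WNT list 5 of 22 were called lower, the ligands WNT2 and WNT5A, RSPO2, the nuclear factor LEF1 and NOTUM, and 1 was called higher, the WNT-binding inhibitor FRZB. WNT5A, the non-canonical ligand of outflow tract progenitors, was at 6.14 and 6.29 CPM against 159 and 116 CPM (-4.47, adjusted p = 3.3e-09), and LEF1 at 4.99 and 6.12 CPM against 55.0 and 53.9 CPM (-3.28, adjusted p = 1.0e-07). FRZB was at 275 and 265 CPM against 21.6 and 41.9 CPM (3.07, adjusted p = 1.7e-06). AXIN2, a direct target of canonical WNT signaling, did not pass the test (0.07). Without WT replicate 1, neither BMP6 nor FRZB was called.

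Of 19 retinoic acid and HOX genes, 4 were called higher (21.1%, against 1.29% of all genes). The 1 called lower (5.26%) was near the share of all genes, 3.42%. ALDH1A1, an enzyme that makes retinoic acid, was at 601 and 548 CPM against 37.3 and 98.7 CPM (3.07, adjusted p = 1.1e-05). MEIS2, a HOX cofactor of heart and limb, was lower, at 4.59 and 7.09 CPM against 140 and 109 CPM (-4.39, adjusted p = 1.2e-08). The number called higher was 1 without WT replicate 1 and 2 without NKX2-5 shRNA replicate 2. Among 21 mesenchyme and matrix genes, 2 were called lower (9.52%) and 13 were lower at 5% false discovery rate, against 24.7% of all genes. COL2A1, the fibrillar collagen of cartilage, was at 1.95 and 2.74 CPM against 642 and 448 CPM (-7.82, adjusted p = 1.6e-09), and TWIST1, a mesenchymal TF, at 0.506 and 0.352 CPM against 12.9 and 13.1 CPM (-4.96, adjusted p = 1.4e-07). FGF8, the growth factor of second heart field and primitive streak, was the 1 early mesoderm gene called, at 0.145 and 0.469 CPM against 30.1 and 19.3 CPM (-6.14, adjusted p = 1.1e-07). Of 8 NKX genes tested beside NKX2-5, 3 were called lower and none higher, among them NKX2-6 and NKX2-1. In the list of 6 noncoding RNAs, TBX5-AS1 and HAND2-AS1 were called lower, like the genes TBX5 and HAND2 beside them, with the limit on strand given for NPPA. In the interferon list of 10 genes IFIT1 was the 1 call, lower at 0.939 and 0.489 CPM against 53.2 and 49.0 CPM (-6.25, adjusted p = 3.7e-09). In the epicardium list of 12 genes LRRN4 was the 1 call, lower (-3.74). With 3.42% of all genes called lower, the single calls for early mesoderm, interferon and epicardium say little about those lists.

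All 22 cell cycle genes were lower at 5% false discovery rate, against 24.7% of all genes, and none reached 8-fold. The median was -1.72. TOP2A, the topoisomerase of dividing cells, was at 94.1 and 99.8 CPM against 659 and 657 CPM (-2.76, adjusted p = 6.2e-09), MKI67 at 27.1 and 32.3 CPM against 102 and 125 CPM (-1.93, adjusted p = 2.7e-07), and MCM2, the smallest difference, at -0.30. Summed over the list the 4 libraries held 867 and 932 CPM in NKX2-5 shRNA cells and 3039 and 3066 CPM in WT cells. CDKN1C, an inhibitor of cyclin-dependent kinases that is in no list, was called higher, at 679 and 689 CPM against 62.4 and 92.0 CPM (3.14, adjusted p = 8.7e-08).

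Whether these differences were particular to NKX2-5 shRNA cells was asked by comparing them directly with the other knockdown lines of the day, which share no control library in such a contrast. ZEB2 shRNA cells were far from them: 755 genes (4.59%) were called between the lines, 579 (3.52%) lower and 176 (1.07%) higher in NKX2-5 shRNA cells, including 26 of 37 sarcomere genes lower and 9 of 29 hepatic and yolk sac genes higher. Against ZNF503 shRNA cells 65 genes (0.395%) were called, 26 (0.158%) lower and 39 (0.237%) higher. The sarcomere list still held 4 of the 26 genes that were lower than in ZNF503 shRNA cells: MYH6, MYBPC3, CSRP3 and ABRA. MYH6 was at 13.6 and 7.94 CPM in ZNF503 shRNA cells, and the difference between the lines was -4.33 (adjusted p = 7.6e-06). TNNT2 was at 9.07 and 7.82 CPM there, a difference of -1.88 (adjusted p = 0.00015) that was under 8-fold. COL2A1 was at 85.9 and 59.9 CPM in ZNF503 shRNA cells (-4.92, adjusted p = 2.3e-06). Sarcomere genes as a list had a median of -1.38 between the lines, against 0.00 for all genes. Endoderm TFs had a median of -0.15, with HNF4A at 562 and 509 CPM in ZNF503 shRNA cells and a difference of -0.12 (SE 0.26, adjusted p = 0.80). Hepatic and yolk sac genes had a median of 0.58 and AMN as the 1 call, at 2.54 and 1.67 CPM in ZNF503 shRNA cells (4.65, adjusted p = 2.4e-05).

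Of 19 blood genes, 3 were called higher in NKX2-5 shRNA than in ZNF503 shRNA cells, HBE1 and GYPB among them, and none lower. HBE1 was at 2.39 and 3.53 CPM in ZNF503 shRNA cells, under the WT libraries, and the difference between the lines was 3.05 (adjusted p = 0.00011). GYPB, a glycophorin of the red cell membrane whose sequence is close to that of its relatives, was at 0.614 and 1.39 CPM in NKX2-5 shRNA cells and at 0 and 0.0794 CPM in ZNF503 shRNA cells. HOXB3 and HOXB4 were also higher than in ZNF503 shRNA cells, by 5.57 and 3.55 on the log2 scale, although their log2 fold changes against WT were -1.44 and -1.33. Of the 39 genes higher than in ZNF503 shRNA cells, 15 of the 24 tested at day 0 were already higher than WT at that day by its threshold, 2-fold at 10% false discovery rate, at which 2.64% of all genes were called higher. Without ZNF503 shRNA replicate 1 the 65 calls fell to 29.

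**Figure D4:**
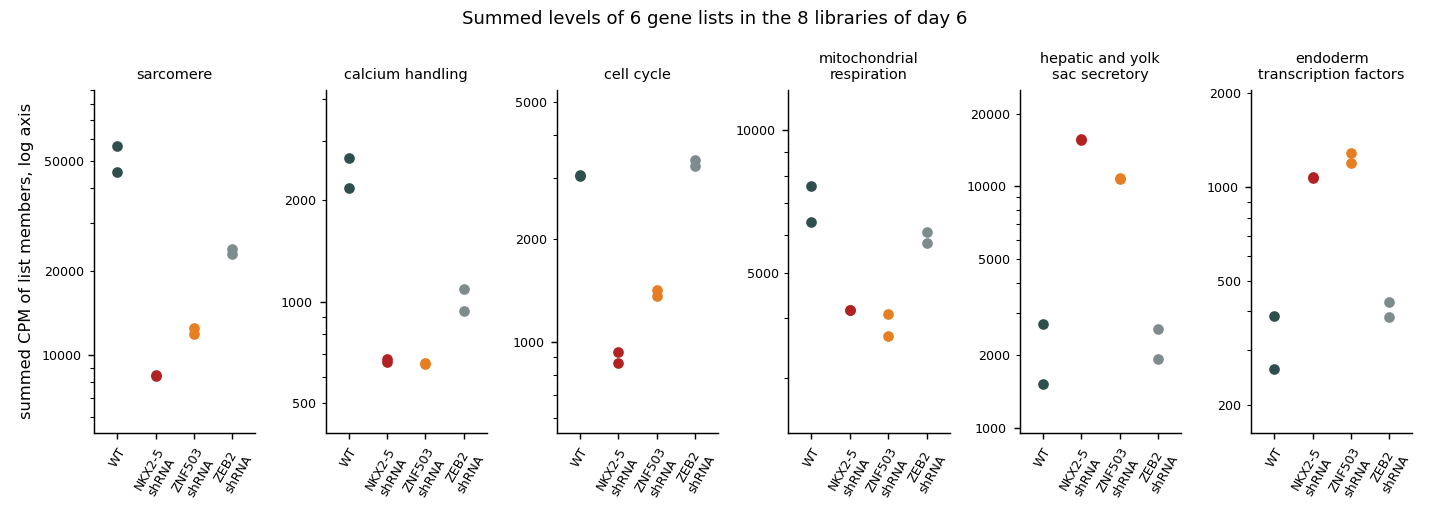
Summed CPM of the members of 6 gene lists in each of the 8 libraries of day 6 (log axis, its own range in each panel; 2 points per line). NKX2-5 shRNA cells have the lowest sarcomere sum, 8457 and 8389 CPM, of which TTN gave 7293 and 7091, and the highest hepatic and yolk sac sum, 15551 and 15712 CPM; ZEB2 shRNA cells lie between them and WT for sarcomere genes, at 24179 and 23185 CPM.

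The timing of the differences was asked with libraries of days 0, 2 and 10, which are other libraries than those of day 6. At day 2, 1.19% of the genes tested were called. Of the 562 genes called lower at day 6, 399 were tested at day 2 and 14 of these (3.51%) were called lower at day 2, by 4-fold at 10% false discovery rate, and they made up 12.0% of the 117 genes (0.708%) called lower at that day. Of the 212 called higher, 116 were tested at day 2 and 8 of these (6.90%) were called higher at day 2, which is 10.0% of 80 (0.484%). Others were called the opposite way at day 2: 2 of the 399 were higher, and 6 of the 116 were lower, nearly as many as the 8. At day 2 the median log2 fold change was -0.25 for the lower and -0.17 for the higher genes. The interaction term, which tests whether the difference from WT was another at day 6 than at day 2, was called for 656 genes (3.78% of those tested, 2.59% lower and 1.19% higher), among them 346 of the 562 lower genes and 89 of the 212 higher ones, all in the direction of day 6. That direction was largely fixed by the choice of the genes, since the term uses the same day 6 libraries. By day 10, when 7.31% of the genes tested were called, 4.46% higher and 2.84% lower, 231 of the 562 and 117 of the 212 were called in the same direction, and the medians were -2.91 and 3.95. The day 10 libraries read were replicates 1 and 2 of NKX2-5 shRNA cells but replicates 3 and 4 of WT cells. A difference between those sets of libraries cannot be told apart from that between the lines at day 10. At the mesendoderm stage of day 2, then, 383 of the 399 lower and 102 of the 116 higher genes tested were not called.

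Levels by day show when the groups parted. With all 30 libraries scaled together, MEF2C was at 1.06 and 1.36 CPM in WT cells at day 2, at 1113 and 804 CPM at day 6 and at 595 and 446 CPM at day 10. The NKX2-5 shRNA libraries held 0.703 and 0.497, then 26.0 and 25.0, and then 38.6 and 34.4 CPM. MEF2C was thus higher at day 6 than at day 2 in both groups, but far less so in NKX2-5 shRNA cells. TNNT2 was 1 of the 14 genes called lower at day 2, on levels of 0.0703 and 0.0415 CPM against 0.258 and 0.371 CPM in WT cells (-2.28, adjusted p = 0.088). TNNT2 in NKX2-5 shRNA cells reached 1.35 and 40.2 CPM by day 10, replicates that were far apart, against 2005 and 1371 CPM in WT cells. HNF4A, at 0.0703 CPM or less in all 4 libraries of day 2, reached 489 and 520 CPM at day 6 in NKX2-5 shRNA cells and 174 and 218 CPM at day 10, against 36.7 and 85.6 CPM and then 18.6 and 8.50 CPM in WT cells. In NKX2-5 shRNA cells HBE1 went from 25.5 and 25.4 CPM at day 6 to 699 and 796 CPM at day 10. PDGFRA was at 548 and 512 CPM at day 2 in these cells and at 392 and 402 CPM in WT cells.

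**Figure D5:**
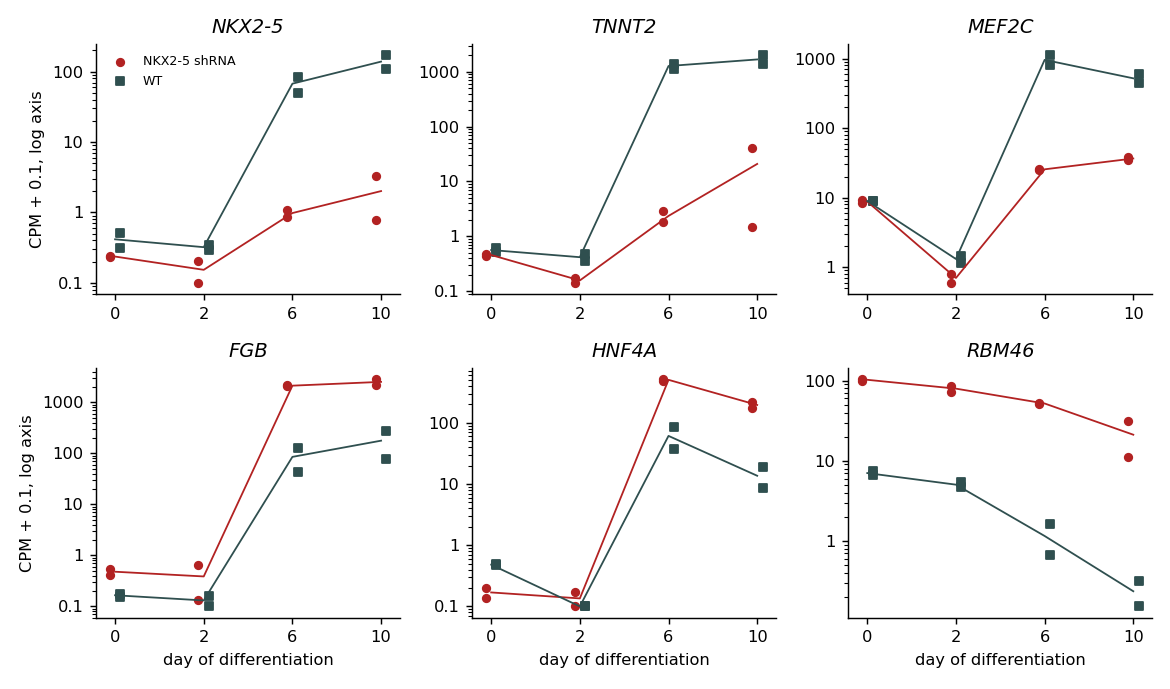
CPM plus 0.1 (log axis) of 6 genes at days 0, 2, 6 and 10 in NKX2-5 shRNA (red circles) and WT (dark squares) libraries, 2 per group, with lines through the means. NKX2-5, TNNT2 and MEF2C part most widely after day 2 with WT above, FGB and HNF4A part with NKX2-5 shRNA above, and RBM46 is apart at every day.

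Some genes were apart from the start. At day 0, 26 of 431 lower genes tested (6.03%, against 1.40% of all genes) were called lower and 22 were called higher, and 22 of 140 higher genes tested (15.7%, against 2.64%) were called higher and 7 lower. Of 774 genes called at day 6, 9 were called in the same direction at both day 0 and day 2, 8 higher and 1 lower. RBM46, an RNA-binding protein of germ cells, was at 100 and 105 CPM in NKX2-5 shRNA cells and at 6.55 and 7.29 CPM in WT cells at day 0. At day 6 it was at 50.4 and 50.9 CPM against 0.557 and 1.51 CPM (5.50, adjusted p = 5.2e-08), and at 0.199 and 0.477 CPM in ZNF503 shRNA cells. The cathepsin gene CTSF (2.72 at day 0, 2.90 at day 2 and 4.35 at day 6) and the zinc finger gene ZNF662 (2.82, 3.25 and 3.36) showed the same pattern, and so did LRRC61, DDX43, LINC00839, PTH2R and PAX8-AS1. PEG3, a paternally expressed imprinted zinc finger gene, was the 1 lower gene: at day 6 it was at 0.108 and 0.117 CPM against 20.8 and 28.4 CPM in WT (-7.71, adjusted p = 8.0e-09) and 11.6 and 9.53 CPM in ZNF503 shRNA cells, and at days 0 and 2 it differed from WT by -3.95 and -6.20.

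The upstream sequence of the called genes was searched for the NKX2-5 core motif TNAAGTG, on both strands (CACTTNA on the other), in the 250 bases before each RefSeq gene start (GRCh38.p14). A promoter was at hand for 406 of the 562 lower and 162 of the 212 higher genes. The motif was in 7.88% of the first and 8.64% of the second, against 6.43% of all 12564 tested genes with a promoter and 8.84% of all 27305 promoters of the table, so neither set stood out by it. Its presence there is a description of the letters only. Among genes called lower with at least 100 CPM in WT, those with a match include CMYA5, GUCY1A1, MYOM1, NEBL, SLC8A1 and XIRP1. The listing left out a chromosome and may not be complete. The windows of the last 3 genes are shown, 5′ to 3′ toward the gene start, with the match in capitals. NEBL encodes nebulette, a Z-disc protein, and was at 23.9 CPM on average against 3624 CPM in WT (-7.24), and XIRP1 encodes an actin-binding protein of the intercalated disc (-6.81). The windows are chr10:21174932-21175181, chr2:40512436-40512685 and chr3:39192596-39192845, all of minus strand genes:
NEBL: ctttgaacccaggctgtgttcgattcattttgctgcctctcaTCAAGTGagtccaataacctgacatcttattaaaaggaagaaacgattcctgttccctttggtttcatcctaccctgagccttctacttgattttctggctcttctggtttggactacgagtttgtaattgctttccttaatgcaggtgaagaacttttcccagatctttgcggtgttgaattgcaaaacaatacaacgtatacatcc
SLC8A1: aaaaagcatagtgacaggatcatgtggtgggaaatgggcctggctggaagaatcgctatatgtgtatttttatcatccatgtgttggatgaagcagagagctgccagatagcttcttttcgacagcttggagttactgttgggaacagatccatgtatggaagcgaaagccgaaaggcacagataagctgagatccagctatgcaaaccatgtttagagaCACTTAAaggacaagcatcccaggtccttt
XIRP1: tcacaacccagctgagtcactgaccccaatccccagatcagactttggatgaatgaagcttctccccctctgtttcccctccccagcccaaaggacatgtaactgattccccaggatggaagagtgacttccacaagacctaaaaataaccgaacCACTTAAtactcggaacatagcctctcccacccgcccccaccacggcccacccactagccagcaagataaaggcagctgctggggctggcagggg
The match begins 208 bases before the start of NEBL, 30 before that of SLC8A1 and 95 before that of XIRP1. The promoter of MYH6, the gene with the deepest difference, holds no match in this window.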

How the data were processed

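The series holds 34 RNA-seq libraries of H1 cells; the comparison uses 2 NKX2-5 shRNA and 2 WT libraries of day 6, which the study calls biological replicates. The deposited counts are whole reads per RefSeq gene region. According to the study's methods, the authors made stranded total RNA libraries, aligned paired reads to GRCh37 with TopHat2 2.0.14 (Bowtie2 2.2.1.0, SAMtools 0.1.19.0) and counted with RSeQC; whether counting used strand is not given in the sources used here. Genes with antisense or overlapping partners, and near copies, are therefore uncertain. Of 41627 accessions, 40281 were matched to a symbol, and the accession with the largest total was kept for each of 23185 symbols. The values of 4 day 10 libraries are out of step with the accessions and were not used here; 30 libraries were read. Gene positions are from GENCODE on GRCh37, and promoters and miRNAs from RefSeq on GRCh38.p14.

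Counts were tested with edgeR 4.0.16 (quasi-likelihood, TMM scaling, filterByExpr) in R 4.3.3, in 1 fit of the 4 groups of day 6, with p-values adjusted over the whole table by Benjamini-Hochberg. The fit gave the differences from WT, ZNF503 shRNA and ZEB2 shRNA cells, and a fit over days 2 and 6 gave the interaction. Called means 8-fold at 1% false discovery rate. SE is the log2 fold change over the root of its F statistic. A group counts as at the limit when each library holds at most 3 counts; fitted values use a prior count of 0.125. A few genes are not reported here. The steps were tested on simulated data. Replicates of NKX2-5 shRNA and WT cells correlated at 0.996 and 0.993 (Spearman, across genes). Genes were named by rule: in each list the 2 most abundant and the 2 most significant in each direction, and the 10 largest changes each way outside the lists among genes without overlap and with a mean of at least 5 CPM in the higher group; others were picked for their role with values known. The members and lists were chosen with earlier results of these data known. Alternatives were DESeq2 1.42.0, its size factors, library totals, other filters and thresholds, a replicate block and leaving out each library.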

Additional observations from a re-analysis of the deposited data

Results flagged for a closer look

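The difference between NKX2-5 shRNA and WT cells was another at day 6 than at day 2, by the interaction term at 8-fold and 1% false discovery rate, in 656 of 17355 genes (3.78%), 449 lower (2.59%) and 207 higher (1.19%) at day 6. Of 103 named genes tested, 43 passed, 35 lower and 8 higher; many of these were named for their difference at day 6, whose libraries the term also uses. Those given next had both groups above the limit at day 6 and enough reads to be tested at day 2. Their levels at day 2 were not held against the limit. The largest interactions among them were of MYH6 (-12.01), BRINP2 (-10.31), LMO3 (-9.65), RYR2 (-7.80) and TNNT2 (-6.88) on the lower side. On the higher side they were of PCDH15 (5.89), AMN (5.85), ALDH1A1 (5.16), SERPINF2 (5.00) and CDX2 (4.89). Without replicate 2 of WT day 6, 333 genes were higher by the interaction.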

How the results depend on the processing

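The 774 genes called at day 6 (212 higher, 562 lower) became 8077 (4021 and 4056) at 5% false discovery rate with no fold, 4127 (1863 and 2264) at 2-fold and 5%, and 253 (18 and 235) when edgeR's glmTreat tested against 8-fold itself. The share called higher was 27.4% at first, 45.1% at 2-fold and 7.11% with glmTreat. Leaving out 1 library at a time gave 637 to 926 calls, 120 (without WT replicate 1) to 346 (without WT replicate 2) higher and 517 to 580 lower, and a NKX2-5 difference of -6.64 to -5.88. The calls against ZNF503 shRNA cells ranged from 29 to 51 (15 to 28 higher, 14 to 28 lower); 29, 15 and 14 were without ZNF503 shRNA replicate 1, 24 higher without its replicate 2 and 23 higher without NKX2-5 shRNA replicate 2. Those against ZEB2 shRNA cells ranged from 575 to 733 (116 to 172 higher, 116 without ZEB2 shRNA replicate 1, and 459 to 561 lower), and those of the interaction from 541 to 795 (147 to 333 higher, 361 to 491 lower). With library totals alone the interaction gave 642 calls, 40.0% of them higher against 31.6%, with the median of all genes at 0.14 against -0.04. A filter of 1 CPM, which leaves fewer genes in a list, turned the interferon median to -0.00825 and moved those of 8 other lists, that of epicardium from -0.12 to -0.962. With 1 library left out, DSP ran from -0.0562 (without WT replicate 1) to 0.116 and the epicardium median from -0.434 to 0.0888 (without WT replicate 1), and without WT replicate 2 ESRRG (up to 0.214 otherwise), PDGFRA and FLI1 (down to -0.729) stood at -0.0720, -0.0660 and 0.582. The cause of these changes was not tested. For the named genes the threshold was the call where a gene was called at first, and 5% false discovery rate otherwise. Over these genes 1484 values kept direction and side of their threshold, 38 no longer passed it and 4 reversed. Another 3, all of genes not called at first, newly passed 5%, which is not a call.

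At days 2 and 6 replicate numbers are shared between groups, but nothing in the labels ties equal numbers to a batch. The correlation of the replicate differences at day 6 was 0.018 between NKX2-5 shRNA and WT, -0.087 with ZNF503 shRNA and -0.153 with ZEB2 shRNA cells. With the replicate block 769 genes were called (211 higher, 558 lower), NKX2-5 was at -6.23, and the counts were 56 against ZNF503 shRNA, 733 against ZEB2 shRNA and 646 in the interaction. A crossed block, added after the data were seen, gave 751 against ZEB2 shRNA cells. Precision is limited by 2 libraries per group; with 3 counts as the floor, a group whose libraries all lay at or under 0.0586 to 0.129 CPM was given only as a bound.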

Other observations

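Replication-dependent histone genes were lower as a group in NKX2-5 shRNA cells at day 6. Of 67 clustered histone genes tested, 65 were lower and none higher at 5% false discovery rate, 1 was called lower, and the median log2 fold change was -2.37. Their summed level was 2318 and 3208 CPM against 14961 and 10868 CPM in WT cells. At day 2 their median was 0.21, and against ZNF503 shRNA cells at day 6 it was -0.29. These mRNAs carry no poly(A) tail and were measured here because the libraries were made from total RNA.

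Gene families that share a symbol stem were counted after their values were seen, without a test, and those below were picked from 128 families of at least 15 genes. Of all genes, 3.42% were called lower and 1.29% higher. Potassium channel genes (KCN) were called lower in 16 (22.9%) and higher in 4 (5.71%) of 70. Among 40 collagen genes 8 were called lower (20.0%) and 3 higher (7.50%). Those higher were the basement membrane chains COL4A1, at 1559 and 1719 CPM against 128 and 280 CPM in WT cells (3.00), COL4A3 (4.71) and COL4A4 (4.17), and the lower ones were COL2A1, COL6A4P2, COL6A6, COL9A1, COL11A2, COL13A1, COL15A1 and COL24A1. Of 16 FGF genes 3 were called lower, FGF8, FGF9 and FGF10, a growth factor of second heart field progenitors, at 1.05 and 1.04 CPM against 44.3 and 44.0 CPM (-5.40). The stems RPL and RPS served as a contrast, with none called of 69 and 51 genes. They were counted by symbol, and not all of them need be ribosomal protein genes.

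MIR302B, a locus of the pluripotency-associated miR-302 cluster, had 102 and 227 counts in NKX2-5 shRNA cells against 4 and 29 in WT cells (3.10), although POU5F1 did not differ at the test's threshold (0.02). H19, an imprinted noncoding RNA, was lower at 76.4 and 86.2 CPM against 273 and 453 CPM (-2.16), and CDKN1C, imprinted in the same region, was higher. PDK1, a kinase that inhibits pyruvate dehydrogenase, was at 18.5 and 19.7 CPM against 1523 and 1172 CPM (-6.14), and the NOTCH ligand JAG1 was at 5.74 and 6.18 CPM against 379 and 246 CPM (-5.71).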
